A study of Oryza sativa with 4 samples.

Results

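HXK2, HXK5 and HXK6 are 3 hexokinase genes of rice, read by 4 probe sets among the 57381 of the Affymetrix Rice Genome Array and standing for 3 of the 17905 genes it measured here. They were taken by the loci LOC4339420 for HXK2 and LOC4338010 for HXK6, and by name for HXK5. The name HXK5 is listed for a pair of loci, of which LOC4339361 had a probe set and was used. The gene table gives HXK3 as a further name of LOC4339420 and HXK7 as a further name of LOC4338010, and it also lists HXK6 for another locus, LOC4326547, so the loci and not the names fix which genes are meant. The genes were chosen because their signals differed between genotypes in these same arrays, so every value of theirs is a description and none was tested.

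The arrays measured whole spikelets, the grass florets with their bracts, of field-grown rice without treatment. RNAi plants, of the ZH11 background, carried an RNA interference construct against OsCPK21, a calcium-dependent protein kinase, and were sampled at anther stage 9 (1 array) and stage 12 (1 array). The ZH11 cultivar was sampled at the same stages, again with 1 array each. The labels speak of 3 RNAi lines, and whether RNA of these lines was pooled is not given in the sources used here. With 1 array per group no spread between plants and no p-value could be had for any result, and the small number of arrays limits how precise each ratio is. The title, description and source name of each sample give its genotype, while the genotype characteristic gives the opposite one on all 4. OsCPK21 had signals of 206 and 17.6 in RNAi spikelets at stages 9 and 12, against 1939.6 and 2719 in ZH11 spikelets, which goes with the titles, and all genotype directions below follow the titles.

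Hexokinases phosphorylate glucose and other hexoses, the step that commits a sugar to glycolysis, to starch or to cell wall synthesis. In plants the family holds enzymes bound to mitochondria, enzymes of the plastid and enzymes of the cytosol, and some members also act as glucose sensors that change gene expression. Pollen depends on sugar unloaded from surrounding tissue, which the tapetum and later the pollen grain itself take up, and maturing rice pollen stores much of it as starch. Rice HXK5 is known to be needed for starch in pollen and for male fertility, and HXK10 for anther dehiscence and pollen germination. HXK5 and an enzyme named HXK6 are known in rice as glucose sensors. Because more than 1 locus is listed as HXK6, the sensor role is not attached here to LOC4338010. HXK5 is likewise listed for more than 1 locus, and the roles given under that name were not traced here to LOC4339361.

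The silencing of OsCPK21 went with a low HXK6 signal at stage 9 and with HXK5 and HXK2 signals below those of ZH11 at stage 12. HXK5 and HXK2 were higher at stage 12 than at stage 9 in ZH11, and within 1.38-fold between stages in RNAi. HXK6 was 18.8-fold lower in RNAi than in ZH11 spikelets at stage 9, and 1.81-fold lower at stage 12. HXK5 was 3.77-fold lower and HXK2 2.69-fold lower in RNAi at stage 12, while at stage 9 both lay within 1.21-fold of ZH11. The signals themselves, on a linear scale, stand in the plot of signals by array.

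**Figure D1:**
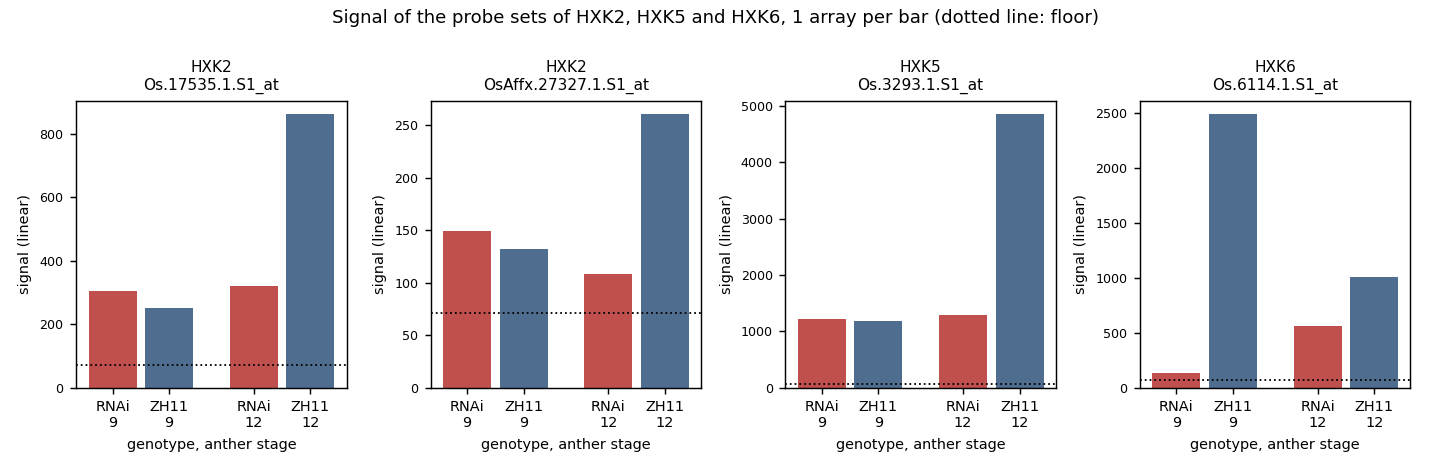
Signal (linear scale) of the 4 probe sets of HXK2, HXK5 and HXK6, with RNAi in red and ZH11 in blue at anther stages 9 and 12. Each bar is 1 array and the dotted line is the floor of 71.1; each panel has its own axis from 0. HXK5 stands at 4857 in ZH11 at stage 12 and between 1182 and 1287 on the other arrays, and HXK6 at 132 in RNAi at stage 9.

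HXK5, read by 1 probe set, had signals of 1222 in RNAi and 1182 in ZH11 at stage 9. At stage 12 it had signals of 1287 in RNAi and 4857 in ZH11. A single array, ZH11 at stage 12, was high, and the next 3 in order of level (RNAi at stage 12, RNAi at stage 9, ZH11 at stage 9) stood 1.05-fold and 1.03-fold apart. The log2 ratio of RNAi over ZH11 was 0.05 at stage 9 and -1.92 at stage 12, a difference of -1.97 between stages. Between stages HXK5 was 4.11-fold higher at stage 12 than at stage 9 in ZH11 and 1.05-fold higher in RNAi. Ratios that share the ZH11 stage 12 array are not independent of each other: its high signal enters both the genotype ratio at stage 12 and the stage ratio of ZH11.

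HXK2 was read by 2 probe sets, both above the floor on all 4 arrays. The probe set that stood for the gene had signals of 303 in RNAi and 251 in ZH11 at stage 9, and of 320.1 in RNAi and 861 in ZH11 at stage 12. The other probe set had signals of 149 in RNAi and 132 in ZH11 at stage 9, and of 108 in RNAi and 260.3 in ZH11 at stage 12. In both, ZH11 at stage 12 was the highest array. Their order differed among the other 3 arrays, where RNAi at stage 12 came next in the one and last in the other, and neighbouring levels there lay between 1.06-fold and 1.22-fold apart.

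The genotype ratios of HXK2 were alike in its probe sets and the stage ratios less so. The log2 ratio of RNAi over ZH11 was 0.27 and 0.17 at stage 9 and -1.43 and -1.27 at stage 12, apart by 0.10 and 0.16. Over genes with several probe sets above the floor, the SD between probe sets of 1 gene was 0.25 for the genotype ratio at stage 9 and 0.32 at stage 12 (2013 and 2034 genes). The log2 ratio of stage 12 over stage 9 was 0.08 and -0.46 in RNAi, and 1.78 and 0.98 in ZH11. The differences of 0.54 and 0.80 between the probe sets compare with SDs of 0.58 in RNAi and 0.56 in ZH11 (1892 and 1877 genes). As folds, stage 12 over stage 9 in ZH11 was 3.43 by the one probe set and 1.97, just under 2, by the other. This SD is a technical yardstick within these arrays and holds no spread between plants.

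HXK6, read by 1 probe set, ran a different course from HXK5 and HXK2. It had signals of 132 in RNAi and 2492 in ZH11 at stage 9, and of 559 in RNAi and 1011.5 in ZH11 at stage 12. In order of level, ZH11 at stage 9 was 2.46-fold above ZH11 at stage 12, which was 1.81-fold above RNAi at stage 12, which was 4.22-fold above RNAi at stage 9. The log2 ratio of RNAi over ZH11 was -4.24 at stage 9 and -0.86 at stage 12. Of 15358 genes with at least 1 stage 9 array above the floor, 10 had a lower ratio than HXK6, with signals under the floor raised to it. Its genotype ratio was higher by 3.38 at stage 12 than at stage 9, and 23 of 16625 genes had a higher one. Stage 12 over stage 9 gave a log2 ratio of 2.08 in RNAi and of -1.30 in ZH11, so the gene went in opposite directions with stage in the genotypes. The low RNAi array of stage 9 enters both the genotype ratio at stage 9 and the stage ratio of RNAi.

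These values are read against how often genes pass the same limit. The limit for calling a gene was a 2-fold ratio or more, and the brighter of the arrays compared had to exceed a signal of 71.1, the floor. At stage 9, 1 of the 3 genes was lower in RNAi and none higher, and 2.27% of the 15358 genes above the floor were lower. At stage 12, 2 of the 3 were lower and none higher, against 7.03% of 15966 genes lower. In all, 455 genes were higher and 1122 lower at stage 12, and with the arrays scaled to a common median 674 were higher and 963 lower. With stage in RNAi 1 was higher and none lower, against 14.9% higher and 15.8% lower of 16056 genes. With stage in ZH11 2 were higher and 1 lower, against 17.1% higher and 15.7% lower of 16378 genes. Since the genes were taken for their genotype ratios, nothing is read from those counts. The median log2 ratio of RNAi over ZH11 across all genes above the floor was -0.04 at stage 9 and 0.02 at stage 12. The middle 95% of genes ran from -0.95 to 1.19 at stage 9 and from -2.54 to 1.05 at stage 12. HXK5 at -1.92 and HXK2 at -1.43 lay inside that range at stage 12, and 3.44% and 4.81% of genes had ratios as low or lower. HXK6 lay far outside the range of stage 9.

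**Figure D2:**
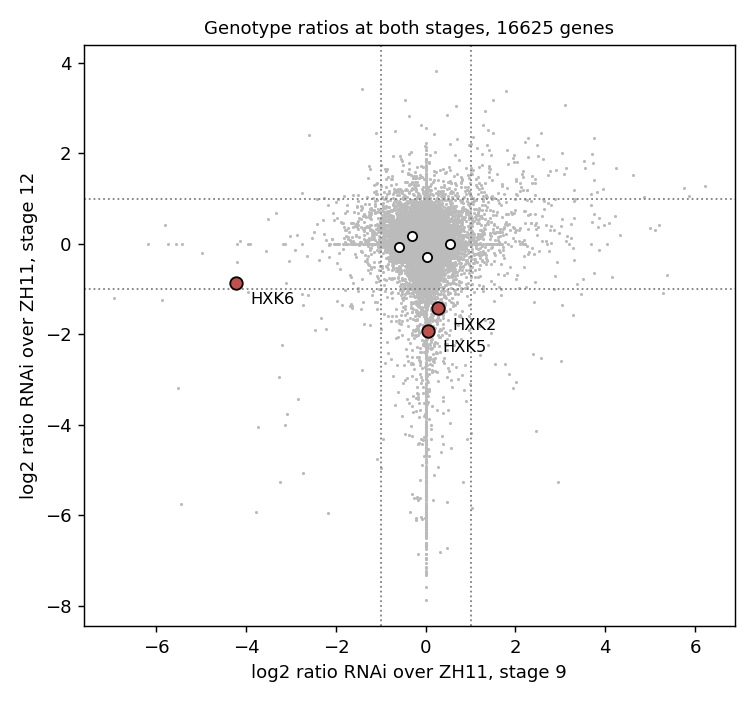
Log2 ratio of RNAi over ZH11 at stage 9 (horizontal) and at stage 12 (vertical) for 16625 genes above the floor of 71.1 on at least 1 array, each a grey point. Red circles are HXK2, HXK5 and HXK6, white circles are the other 4 hexokinase loci measured, and dotted lines mark 2-fold. HXK6 lies far to the left at -4.24, and HXK5 and HXK2 lie below the centre at -1.92 and -1.43; points on the axes lines include genes with both arrays of a stage at the floor.

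The gene table lists 10 hexokinase loci, of which 7 had a probe set and were measured. LOC4324666 (HXK5, HXK9), LOC107275630 (HXK10, HXK7) and LOC4343113 (HXK1) were not analysed here. None of the 4 other loci passed 2-fold between genotypes at either stage, and at stage 12 only 3 of them were above the floor. Most genes did not pass it either. Of all genes above the floor, 3.28% were higher and 2.27% lower in RNAi at stage 9, and 2.85% higher and 7.03% lower at stage 12. LOC4326547, also listed as HXK2 and HXK6, had signals of 1111 in RNAi and 1361 in ZH11 at stage 9, and of 3121 in RNAi and 2761 in ZH11 at stage 12. LOC4326776 (HXK4, HXK8) had signals of 217 in RNAi and 327 in ZH11 at stage 9, and of 1132 in RNAi and 1190.4 in ZH11 at stage 12. Both were higher at stage 12 in each genotype: by 2.81-fold in RNAi and 2.03-fold in ZH11 for LOC4326547, and by 5.22-fold in RNAi and 3.64-fold in ZH11 for LOC4326776. Their probe sets carry a suffix that marks probes shared by several transcripts, so related sequences may add to these signals.

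LOC4342654 (HXK4) had signals of 748 in RNAi and 732 in ZH11 at stage 9, and of 465 in RNAi and 565 in ZH11 at stage 12, all within 1.61-fold of each other. LOC4326516 (HXK3, HXK8) had signals of 164 in RNAi and 113 in ZH11 at stage 9 and was below the floor in both at stage 12, so no ratio is given there. The 4 hexokinases with a higher signal at stage 12 than at stage 9 in ZH11 were not alike in RNAi: HXK5 and HXK2 were within 1.06-fold between stages in RNAi by the probe sets that stood for them, while LOC4326547 and LOC4326776 were above 2-fold there too. Whether these stage ratios differ between genotypes by more than error was not tested, since no group had a second array.

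**Figure D3:**
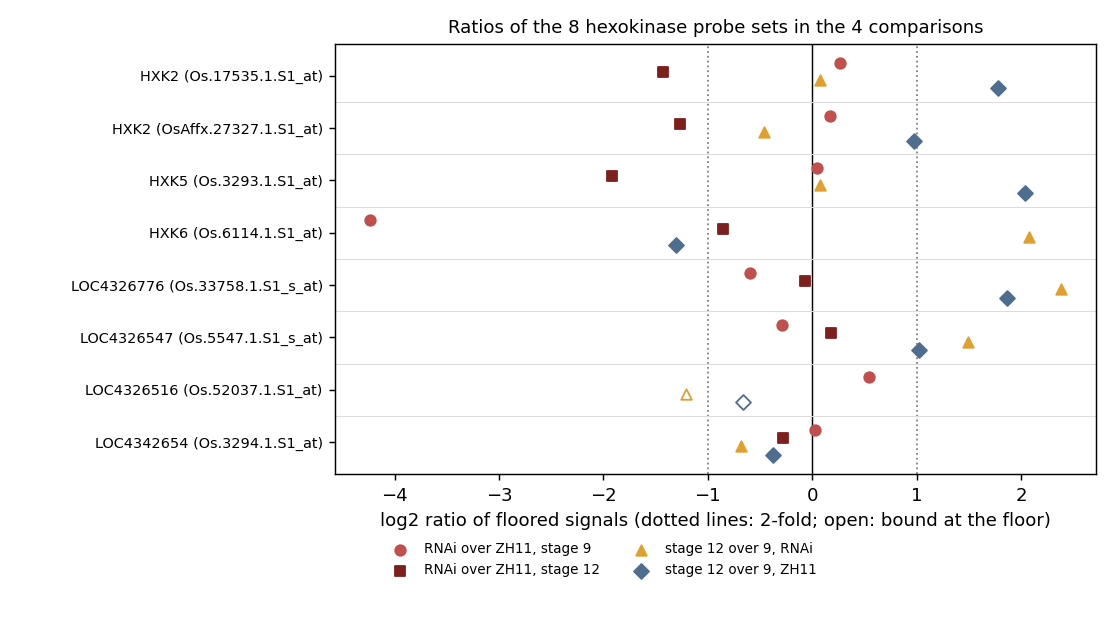
Log2 ratios of floored signals (horizontal) of the 8 hexokinase probe sets (rows) in 4 comparisons: RNAi over ZH11 at stage 9 (light red circles) and stage 12 (dark red squares), and stage 12 over stage 9 in RNAi (orange triangles) and in ZH11 (blue diamonds). Open symbols are bounds with 1 array at the floor, and a ratio with both arrays under the floor is not drawn. Past the dotted 2-fold lines between genotypes are only HXK6 at stage 9 and HXK5 and both probe sets of HXK2 at stage 12.

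Genes of sugar supply and use around the hexokinases were counted in 5 lists picked by symbol, 68 genes of which 60 were measured. At stage 9, 2 were higher and none lower in RNAi, against 3.28% higher and 2.27% lower among all genes above the floor, and their median log2 ratio was 0.02. At stage 12, 2 were higher and 12 lower, against 2.85% higher and 7.03% lower, and the median was -0.20 over the 56 above the floor. With the arrays scaled to a common median 10 were lower, NIN3 and SWEET6A being within 2-fold. Of the 12 lower genes, 10 were called higher at stage 12 than at stage 9 in ZH11 and 1 in RNAi, while 3 were called lower in RNAi. Of all genes above the floor, 17.1% were higher with stage in ZH11, and 14.9% were higher and 15.8% lower in RNAi. The genotype ratio at stage 12 and the stage ratio of ZH11 share the ZH11 stage 12 array. Of all 1122 genes lower in RNAi at stage 12, 662 were higher with stage in ZH11 and within 2-fold in the other 2 comparisons. The course is therefore not particular to sugar genes. The lists were made with results of these data known, so these counts describe them and support nothing.

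Among 19 sugar transporters measured, none passed 2-fold at stage 9, and 5 were lower and 1 higher in RNAi at stage 12 (median log2 ratio -0.18). SWEET5, of the family of sugar channels, had a signal of 111 in RNAi and 3860.0 in ZH11 at stage 12. MEX1, named for the plastid maltose exporter, had one of 374 in RNAi and 4739.9 in ZH11. MST5, a monosaccharide importer, was below the floor in RNAi and had a signal of 1767 in ZH11, and SWEET15 was below the floor in RNAi and had one of 569 in ZH11. SWEET6A was 2.08-fold lower in RNAi at stage 12 yet higher at stage 12 than at stage 9 in both genotypes, 3.66-fold in RNAi and 4.54-fold in ZH11. SWEET16, the higher one, had signals of 652 in RNAi and 319 in ZH11 at stage 12, 2.04-fold. SUT1, a sucrose transporter, had signals of 1854 in RNAi and 2723 in ZH11 at stage 12 and was not called.

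Of 13 enzymes that split sucrose, 2 were lower in RNAi at stage 12 and none was called at stage 9. NIN3, a neutral invertase, which supplies hexoses inside the cell, had signals of 1126 in RNAi and 2349.9 in ZH11 at stage 12, 2.09-fold lower. CIN3, a cell wall invertase, was below the floor in RNAi and had a signal of 183 in ZH11, at least 2.57-fold lower. No sucrose synthase passed 2-fold between genotypes, and SUS5 and SUS6 were below the floor in both at stage 12. SUS2 had signals of 7731 in RNAi and 7403 in ZH11 at stage 12.

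Of 11 glycolysis genes 2 were lower in RNAi at stage 12 and none was called at stage 9, with medians of -0.39 and -0.12. FBA2, of the fructose-bisphosphate aldolases, was below the floor in RNAi at stage 12 and had a signal of 2673 in ZH11, which made it at least 37.6-fold lower, and it was below the floor on both stage 9 arrays. FRK1, a fructokinase, which phosphorylates the other hexose freed from sucrose, had signals of 1549 in RNAi and 1047 in ZH11 at stage 9. At stage 12 it had signals of 511 in RNAi and 1249.7 in ZH11, 2.45-fold lower. FRK1 therefore differed from HXK5 and HXK2 in its course: it was 3.03-fold lower at stage 12 than at stage 9 in RNAi and 1.19-fold higher in ZH11. Other bright glycolysis genes were within 2-fold, such as the glyceraldehyde phosphate dehydrogenase GAPC1, with signals of 12337 in RNAi and 12210.2 in ZH11 at stage 12.

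Of 6 starch synthesis genes 1 was lower in RNAi at stage 12. GBSS1, the granule-bound starch synthase, had a signal of 131 in RNAi and 5383 in ZH11 by its brightest probe set, while across its 6 probe sets the log2 ratio lay between -5.36 and 0.18. SBE1, a starch branching enzyme, had signals of 1273 in RNAi and 2415 in ZH11, a log2 ratio of -0.92 that was not called, and AGPS2, a small subunit of ADP-glucose pyrophosphorylase, had 2064 in RNAi and 1973 in ZH11.

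Of 11 genes of trehalose phosphate phosphatases and SnRK1 kinases, which take part in sugar signalling, 2 were higher in RNAi at stage 9, and 1 was higher and 2 lower at stage 12. TPP7 had signals of 5852 in RNAi and 1648 in ZH11 at stage 9, and of 1220.2 in RNAi and 362 in ZH11 at stage 12, 3.55-fold and 3.37-fold higher. By its other probe set the log2 ratio was 0.72 at stage 9 and 0.55 at stage 12, both under 2-fold. TPP1 was 2.75-fold higher at stage 9, with signals of 7693 in RNAi and 2793 in ZH11. TPP2 (LOC4349333) had signals of 251 in RNAi and 1604 in ZH11 at stage 12, 6.39-fold lower, and TPP10 was below the floor in RNAi, at least 2.73-fold lower. The kinase genes SnRK1A, SNRK1B and OSK3 had log2 ratios between -0.24 and 0.22 at both stages.

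**Figure D4:**
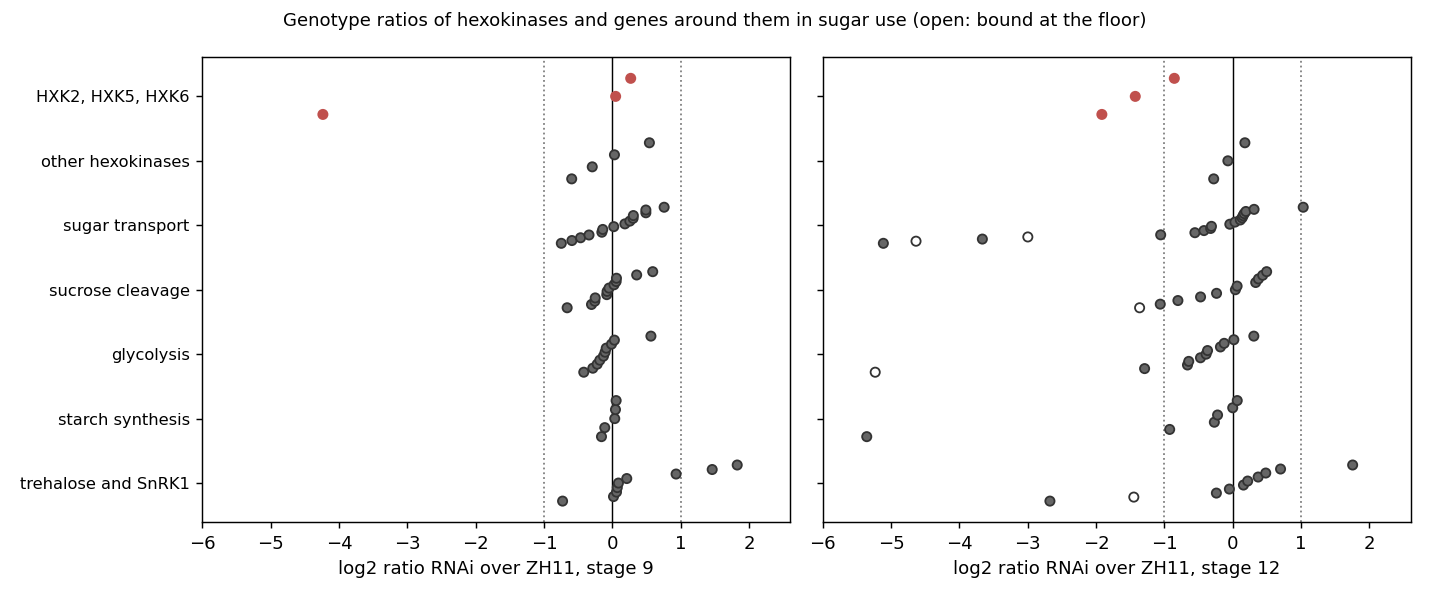
Log2 ratio of RNAi over ZH11 at stage 9 (left) and stage 12 (right) for HXK2, HXK5 and HXK6 (red), the other hexokinases and 5 lists of sugar genes, 1 point per gene. Open points are bounds with 1 array at the floor of 71.1, genes with both arrays at or below it are not drawn, and dotted lines mark 2-fold. At stage 9 HXK6 at -4.24 is the one gene drawn that is lower by 2-fold; at stage 12, HXK5, HXK2 and 12 sugar genes are.

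Markers of anther cells differed between the same arrays. All 15 genes listed as late pollen markers were lower in RNAi at stage 12, against 7.03% of all genes above the floor. By the same ZH11 stage 12 array, 14 of them were higher at stage 12 than at stage 9 in ZH11, against 17.1%. The one that was not was ACT1, an actin gene bright on all 4 arrays, with a signal of 4915 in RNAi and 13143 in ZH11 at stage 12. The other 14, summed without ACT1 after its signals were seen, had totals of 758 in RNAi and 70065.9 in ZH11 at stage 12, and of 661 in RNAi and 662 in ZH11 at stage 9. Of these, 9 did not exceed the floor in RNAi at stage 12, among them EXPB9, EXPB10 and VLN4. HXK5 and HXK2 were lower on that RNAi array too but stayed above the floor. Of 12 tapetum markers 5 were lower and 1 higher in RNAi at stage 9, when HXK6 was low. Of all genes, 2.27% were lower and 3.28% higher. The markers had summed signals of 33109.8 in RNAi and 52290.9 in ZH11, and OsC6 and CP1 were below the floor in RNAi. OsC6 had the largest drop, with signals of 45.4 in RNAi and 8767 in ZH11, and PTC1 was 2.20-fold higher. At stage 12, OsC6 was lower and RAFTIN1 10.8-fold higher, with sums of 5503 in RNAi and 3961 in ZH11, against 7.03% lower and 2.85% higher of all genes. The 14 markers of green and floral tissue held none past 2-fold between genotypes, with summed signals of 31126 in RNAi and 35297 in ZH11 at stage 9 and of 52019.7 in RNAi and 45532.5 in ZH11 at stage 12. These lists were made with the results known, 3 pollen markers are also sugar genes above, and their part in the hexokinase values was not tested. In whole spikelets, fewer cells of a type and less RNA per cell cannot be told apart. Between stages the actin 3-prime over 5-prime signal, which goes up as RNA is shorter, was 4.20 at stage 9 and 8.53 at stage 12 in RNAi, and 3.89 at stage 9 and 10.3 at stage 12 in ZH11. It was higher at stage 12 in both genotypes, and so was the same ratio for glyceraldehyde phosphate dehydrogenase. These ratios are values per array and not per gene, and their part in the stage ratios of genes was not tested.

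The named genes nearest to each hexokinase over the 4 arrays were found by the Euclidean distance between log2 signals after each gene's mean was taken off. Genes listed only by a locus number were left out of that ranking, so unnamed genes may lie nearer. Nearest to HXK2 were PSK4, named for a phytosulfokine peptide precursor, at 0.21, the phosphate transporter gene OsPht1;7 at 0.26, which was below the floor on 3 arrays, and the starch-related disproportionating enzyme DPE1, listed as D-enzyme, at 0.27. Nearest to HXK5 were ILI6 at 0.10, RAB16D at 0.13 and MADS23 at 0.19, all of which were at the floor on 3 arrays, so that their distances rest on the floor. Among the 13842 other genes above the floor on all 4 arrays, a choice made after the data were seen, the nearest named genes to HXK5 were HIP1 at 0.19, PDC, named for pyruvate decarboxylase, at 0.38, and HXK2 itself at 0.40. HIP1 was also the third nearest named gene to HXK2 there, at 0.28. Named or not, 52 of the 13842 genes lay within 0.5 of HXK5 and 106 within 0.5 of HXK2. HXK5 and HXK2 were both chosen for their genotype ratios on these arrays, so their closeness is partly set by that choice. By the first choice, 221 of 16624 genes lay within 0.5 of HXK2 and 168 within 0.5 of HXK5. None lay within 0.5 of HXK6, whose nearest named genes were the formin gene FH10 and HIRL2, both at 1.75 and both below the floor in RNAi at stage 9, and HMA5, of a family of metal-transporting ATPases, at 1.94. Among genes above the floor on all 4 arrays they were HMA5, the glutathione S-transferase gene GST1 at 2.01 and the expansin gene EXP2 at 2.22. HIRL2 had signals of 61.8 in RNAi and 304 in ZH11 at stage 9, and of 296 in RNAi and 274 in ZH11 at stage 12. HXK6 lay 3.19 from HXK5 and 3.26 from HXK2.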

How the data were processed

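The deposited table gives array intensities, not log-transformed, with a single signal for every probe set on each array. The submitters' processing notes name MAS5 and nothing else; neither its version nor its scaling is given in the sources used here. RNA was labelled with biotin, per the labels. Python 3.11.15, numpy 2.4.6 and pandas 2.3.3 were used. The floor was the mean over arrays of the trimmed mean signal (2% left out at each end) divided by 5, 71.1, and signals below it were raised to it before log2. Trimmed means ran from 333 to 367 and medians from 75.2 to 85.0. Of the probe sets, 22436 had 1 gene in the platform annotation, and where a gene had several, the brightest by mean log2 signal stood for it. Names came from RefSeq (assembly ASM3414082v1) and the older platform annotation. Where 1 of the arrays compared did not exceed the floor, the ratio is a bound. The calling step was tested on simulated data with planted changes far past 2-fold and noise below the SD between probe sets. That test therefore says nothing of calls near 2-fold. Ratios were recomputed under 6 alternatives. Named were all hexokinase probe sets, list genes past 2-fold with a few others for their level (chosen after their values were seen), and the 3 nearest named genes of each hexokinase. The genes and lists were chosen with earlier results of these data known. Sequences and genome positions were not used here.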

Additional observations from a re-analysis of the deposited data

Results flagged for a closer look

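Both HXK2 and HXK5 had genotype ratios of opposite sign at the stages. The log2 ratio of RNAi over ZH11 for HXK2 was 0.27 at stage 9 and -1.43 at stage 12 by the probe set that stood for the gene, and 0.17 and -1.27 by the other. For HXK5 it was 0.05 at stage 9 and -1.92 at stage 12. HXK6 had stage ratios of opposite sign in the genotypes, with a log2 ratio of stage 12 over stage 9 of 2.08 in RNAi and -1.30 in ZH11. Each of these differences rests on 1 array per group and was not tested. The stage 9 ratios of HXK2 and HXK5 are close to 0, so their sign carries little.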

How the results depend on the processing

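The log2 ratios of HXK2, HXK5 and HXK6 in the 4 comparisons, and the differences of their genotype ratios between stages, stayed on the same side of 2-fold in 90 of 90 recomputations under the 6 alternatives (median scaling, quantile normalization, a floor 2 times as high, a pseudocount in place of the floor, the mean of all probe sets, and no probe sets with shared probes). Part of these recomputations could not differ from the main setting. None of these genes had a probe set with shared probes, and HXK5 and HXK6 had 1 probe set each. The higher floor lay below all signals of HXK5 and of the probe set that stood for HXK2. Over all settings the genotype ratio of HXK6 at stage 9 ran from -4.24 to -3.66, and that of HXK5 at stage 12 from -1.92 to -1.76 and of HXK2 from -1.43 to -1.25. The stage ratio of HXK2 in RNAi ran from -0.19 to 0.20, so it has no settled sign. The count of genes higher in RNAi at stage 12 was 455, and 291 with a pseudocount. Median scaling moved the median log2 ratio of genes above the floor on both stage 12 arrays to 0.18, against 0.03 as deposited, and the higher share of called genes to 41.2% (39.4% after quantile normalization) against 28.9% as deposited. Relative to that shift HXK5, HXK2 and HXK6 kept their sign. The sugar genes lower at stage 12 numbered 10 to 12 over the settings: SWEET6A and NIN3 were within 2-fold under both scalings (SWEET6A with a pseudocount too), and CIN3 and TPP10 at the higher floor. SWEET16 was within 2-fold with a pseudocount, and TPP7 without shared probe sets. Between stages, LOC4326547 had a log2 ratio of 0.98 in ZH11 with a pseudocount, and LOC4326516 one of -0.21 in RNAi at the higher floor. No paired analysis was possible because each group had 1 array and the labels give no replicate numbers, and for the same reason no array could be left out.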

Other observations

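Of the 10 protein-coding genes flanking HXK6 (LOC4338010), 5 on each side, 5 had a probe set and 4 were above the floor at stage 9, and none of these 4 was past 2-fold between genotypes at that stage. The adjacent gene OsPBB1 had signals of 3133 in RNAi and 3218 in ZH11 at stage 9. At stage 12 another of them, LOC4338007, was lower in RNAi, with a log2 ratio of -2.42. Near HXK5 the gene LOC4339356 was higher in RNAi at stage 9, with a log2 ratio of 2.09, and none of the other 3 flanking genes above the floor at stage 9, nor of the 4 above it at stage 12, was called between genotypes. HXK5 and HXK2 lie on the same chromosome with 53 protein-coding genes between them, by the order of the gene table, and none of the 3 flanking genes of HXK2 above the floor was called between genotypes at either stage. At stage 9, 3.28% of all genes above the floor were higher in RNAi and 2.27% lower. At stage 12, 2.85% were higher and 7.03% lower. With so few flanking genes, nothing is read from these counts.

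Genes were also counted by a pattern written from the calls of HXK5 and HXK2, and by one written from those of HXK6. Of 16625 genes above the floor on at least 1 array, 662 (3.98%) were higher at stage 12 in ZH11, lower in RNAi at stage 12, and within 2-fold both between genotypes at stage 9 and between stages in RNAi. The second probe set of HXK2, with a log2 ratio of 0.98 between stages in ZH11, falls just short of that pattern. Of the same genes 12 (0.0722%), HXK6 among them, were lower in RNAi at stage 9, higher at stage 12 in RNAi and lower at stage 12 in ZH11. These counts use the same arrays from which the genes were chosen. The patterns ask for different numbers of 2-fold changes, so the difference between their counts depends on how they were written.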
